A study of Bos taurus with 12 samples.

Results

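The SLC25 family holds the carrier proteins of the inner mitochondrial membrane, and its members were followed here in mammary gland (MG) biopsies of dairy cows after feed restriction and an inflammatory challenge. Members were taken as the array probes whose RefSeq accession leads to a gene symbol made of SLC25A and a number, except SLC25A20, the carnitine and acylcarnitine carrier. This gave 36 genes with 73 probes, of 12639 genes that could be named on the array and of 43653 probes in all. The reference holds 46 such symbols. Of these, SLC25A1, SLC25A10, SLC25A13, SLC25A23, SLC25A32, SLC25A33, SLC25A36, SLC25A43 and SLC25A46 found no probe by accession and were not analysed here.

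The inner mitochondrial membrane is nearly closed to charged metabolites, and SLC25 carriers pass them one by one, mostly by exchanging a molecule on one side for a molecule on the other. In secretory epithelium they connect mitochondria with the cytosol: ATP leaves for milk synthesis, phosphate and ADP return, and dicarboxylates, amino acids and cofactors move between both compartments. The carriers are encoded in the nucleus and are inserted through the translocases of the outer and inner membranes.

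All 12 animals were multiparous Holstein cows in early lactation, at 24 ± 3 d in milk, with 1 array per cow. The 6 CONT cows ate a lactation diet ad libitum, and the 6 REST cows received for 4 d a ration diluted with barley straw (48% of dry matter). Every cow, CONT cows included, had 50 µg of lipopolysaccharide (LPS) infused into 1 healthy rear gland of the udder on day 3, and the biopsy followed 24 h later. No biopsy without LPS was analysed here, so each difference is one between diets in inflamed tissue. Cows are numbered within their group in the order of deposit, and the numbers do not pair them. In a biopsy, fewer cells of one type and less RNA per cell cannot be told apart.

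Values are log2 spot intensities minus the 75th percentile of the array, called log2 signal below, and the probe with the highest mean over the 12 arrays stands for a gene. The 75th percentile itself was 577.1 to 1183.9 in CONT and 386.9 to 1082.0 in REST. The arrays lay on 3 slides of 4, with 3 CONT and 1 REST cows on slide 1, 1 and 3 on slide 2, and 2 and 2 on slide 3. The median of the negative control spots, before scaling, was 4.28 to 17.30 in CONT and 3.44 to 15.82 in REST. It was highest in CONT 4 and REST 1, both on slide 1. In CONT 4 the fewest probes (57.6%) were well above background. The part of this in the values of dim members was not tested. The markers of secretory luminal cells that were matched (7 of 8: caseins, LALBA, PAEP and keratins) cleared the background on all 12 arrays, as the labelled tissue should. Of the 36 members, 25 cleared it on all 12 arrays, and SLC25A2 and SLC25A53 did so on none.

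Most members of the family differed little in mean signal between the diets. No member passed the threshold of 0.05 after Westfall-Young adjustment over all probes in limma, where 0% of the probes passed, and none did with the Benjamini-Hochberg adjustment. Without adjustment, 1 of the 36 members (SLC25A34) had a p under 0.05, against 2.64% of all named genes, and 1 of the 73 probes had one, against 2.62% of all probes. That member was higher in REST, as were 1.63% of all named genes at this threshold, and none was lower, beside 1.01%. SLC25A34 entered this count through REST, because its probe is the brighter of 2 only by its signal there, and the other probe has a p of 0.436. The mean was higher in REST for 12 members and lower for 24, whereas 43.5% of all named genes were higher. The median log2 difference over the members was -0.06, beside -0.03 over all named genes, and with the slide fitted as a block both turned, to 0.05 over the members, 20 of them higher, and to 0.01 over all named genes. With a gene taken as the average of its probes 18 members were higher, and of the 73 probes 35 were higher (47.9%, beside 46.1% of all probes) and 38 lower, so the 12 against 24 depends on these choices. The differences ranged from -0.36 to 2.23, and they exceeded 0.5 in size for 3 members, beside 9.34% of all named genes. These were SLC25A34, through the probe chosen by its REST signal, SLC25A47 (0.51), and SLC25A53 (0.64), which was above background on no array. All were positive, and of them SLC25A34 had an unadjusted p under 0.05.

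Precision differed between members. The 95% interval of the difference lay within 1 log2 unit of 0 for 26 members (72.2%), beside 70.3% of all named genes, so a doubling or a halving lay outside the interval for these. The sign of the difference turned for 10 members with the slide as a block and for 17 when some single cow was left out. For 11 members (30.6%) it lay within 0.5, beside 24.7% of all named genes. The other 10 intervals, which reached to 3.24, leave room for larger changes in either or one direction. For no member did the groups lie fully apart, beside 0.15% of all named genes. Within every one of the 3 slides, 3 members were higher in REST (beside 10.6% of all named genes) and 8 were lower (beside 9.29%).

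**Figure D1:**
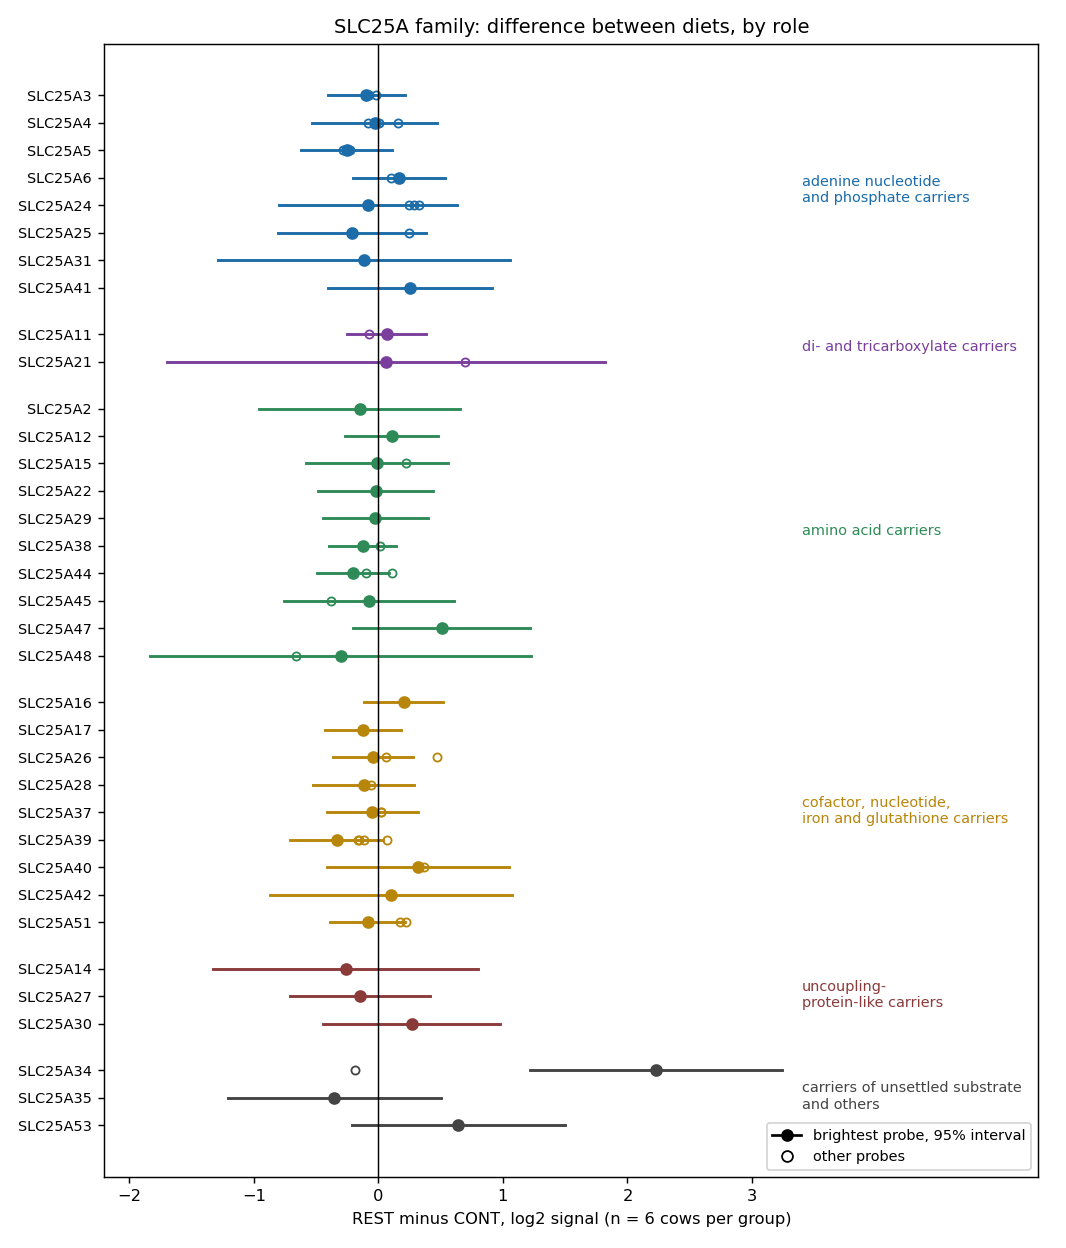
Difference between REST and CONT in log2 signal (x axis) for 35 SLC25A members (y axis), grouped by role. Filled points are the brightest probe with its 95% interval (n = 6 cows per group) and open points the other probes of the gene. The interval of SLC25A34 (1.22 to 3.24) lies apart from 0, and those of the other 34 members drawn include 0. The filled points of SLC25A2 and SLC25A53 and the open point of SLC25A45 come from probes well above background on no array. Some other points, such as that of SLC25A31 (1 array), come from probes above it on few arrays.

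The member with the largest difference was SLC25A34, a carrier whose substrate is not settled. In CONT its brightest probe ran from -3.74 (lowest) through a median of -3.32 to -1.90 (highest), and in REST from -2.48 through -0.47 to -0.05. Most REST cows thus stood above all CONT cows, namely REST 2, REST 3, REST 4 and REST 6 at -0.05, -0.26, -0.14 and -0.68, but REST 1 at -2.03 and REST 5 at -2.48 lay below CONT 6 at -1.90. The group means were -3.17 ± 0.67 (SD, n = 6) and -0.94 ± 1.05 (SD, n = 6), a log2 difference of 2.23 (SE 0.47) or a fold change of 4.68. The unadjusted p was 0.000393 in limma, the Westfall-Young adjusted p 0.94 and the exact two-sided permutation p for this probe 0.00649, where 0.00216 is the smallest that 6 against 6 cows allow. All 6 REST cows lay above the CONT mean.

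The difference of SLC25A34 was present on every slide, at 1.37 on slide 1, 2.76 on slide 2 and 2.10 on slide 3, and was 2.08 with the slide as a block. It stayed between 2.05 and 2.54 when each cow was left out in turn, but was 1.41 with normexp background correction and 1.02 as the mean over both probes. The study named SLC25A34 from these same arrays, so its direction here is not independent evidence.

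The gene has 2 probes, and the other one did not follow. In CONT the other probe ran from -2.75 through -2.14 to -1.48, and in REST from -2.62 through -2.27 to -1.78, so the REST cows lay inside the CONT range. Its log2 difference was -0.19 (SE 0.23, interval -0.69 to 0.31), although it cleared the background on all 12 arrays, while the brightest probe was so in 5 CONT and 6 REST cows. The rule on brightness separated them narrowly, with means over all cows of -2.05 and -2.17, and in CONT alone the order was the opposite (-3.17 and -2.07). The value given for SLC25A34 therefore depends on which probe stands for the gene, and no sequence that would place the probes on the transcript was used here.

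**Figure D2:**
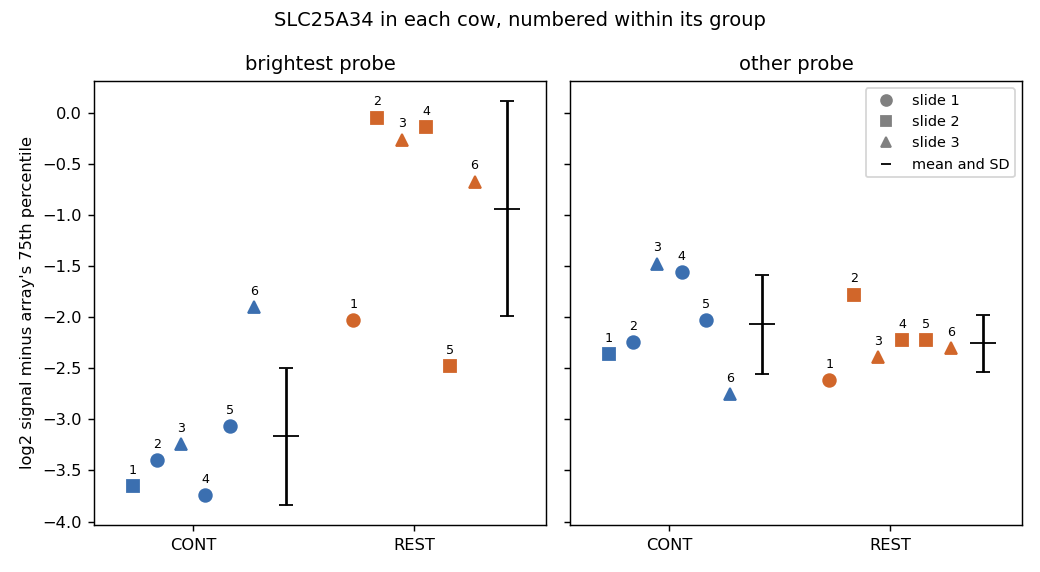
Log2 signal (y axis, relative to the 75th percentile of the array) of both SLC25A34 probes in each cow, with CONT in blue and REST in orange, cow numbers above the points, slides as symbols, and bars for mean and SD (n = 6). The brightest probe runs from -3.74 to -1.90 in CONT and from -2.48 to -0.05 in REST, while the other probe overlaps fully.

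Markers of other cell types were followed beside this result. Of 6 skeletal muscle genes, TNNT3, a fast troponin subunit, was higher in REST by 1.12 (unadjusted p 0.0168 in limma), the other 5 were lower, and the median was -0.17. The summed muscle signal was 0.96 to 2.22 in CONT and 0.84 to 1.72 in REST on the log2 scale, and TNNC2 was above background on no array. Of the 5 adipocyte genes matched, none had an unadjusted p under 0.05, 4 were higher and the median was 0.19, with summed signals of 2.90 to 7.35 in CONT and 6.65 to 7.92 in REST. FABP4, a fatty acid binding protein, had the largest difference of all these markers (1.20, SE 0.62, unadjusted limma p 0.0727, exact permutation p 0.0519), with every REST cow above the CONT mean and CONT 6 lowest at 2.87, the next cow being at 5.78. All 5 fibroblast genes (collagens, decorin and lumican) were lower in REST, 3 of them with an unadjusted p under 0.05, with a median of -0.65. With the slide as a block the median was -0.39 and only LUM (lumican) kept an unadjusted p under 0.05 (0.0117 in limma), whereas COL1A1 had 0.185 and COL1A2 0.131, and the medians by slide were 0.17, -1.06 and -0.28. The summed fibroblast signal was 5.60 to 6.04 in CONT and 4.49 to 6.07 in REST.

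Of the 7 secretory luminal genes, 5 were higher in REST and 2 lower, with a median of 0.31, medians by slide of -0.21, 0.68 and -0.03, and none at an unadjusted p under 0.05. Leukocyte and red cell markers were followed too. The 5 neutrophil genes matched had a median of 0.23, with 4 higher, 1 lower and none at an unadjusted p under 0.05, but their medians by slide were 1.36, -3.07 and 2.01. Their summed signal was 4.13 to 7.40 in CONT and 2.20 to 7.58 in REST. The 4 macrophage genes had a median of 0.22, none under 0.05, summed signals of 3.14 to 4.06 in CONT and 3.19 to 4.49 in REST, and MSR1, a scavenger receptor, as the largest difference (1.12, SE 0.63). The 4 erythroid genes had a median of 0.00, none under 0.05, and summed signals of 2.14 to 4.38 in CONT and 3.05 to 4.75 in REST, with ALAS2 above background on no array. The part of all these cells in the SLC25A values was not tested.

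The adenine nucleotide and phosphate carriers, which exchange ATP, ADP and phosphate, comprised 8 members, of which 2 were higher, 6 were lower and none had an unadjusted p under 0.05 (median -0.09). With the slide as a block 4 were higher and 4 lower, and the median was 0.02. SLC25A3, the phosphate carrier, ran from 3.80 to 4.23 in CONT (median 4.14) and from 3.71 to 4.14 in REST (median 4.05). Its 3 probes were all slightly lower, by 0.02 to 0.10.

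The ADP/ATP exchangers SLC25A4, SLC25A5 and SLC25A6 cleared the background in every cow and differed in sign. SLC25A5 ran from 2.61 through 3.33 to 3.46 in CONT and from 2.79 through 2.88 to 3.22 in REST. Here 4 of 6 CONT cows were above all REST cows, and CONT 6 was the lowest of all. The 3 probes of SLC25A5 were all lower, by 0.23 to 0.29 over all cows, and each was also lower within each of the 3 slides. The log2 difference of the brightest was -0.25 (SE 0.17), with an exact permutation p of 0.117. Without CONT 6 it was -0.37, with an unadjusted limma p of 0.0234. SLC25A6 ran from 6.55 through 6.76 to 7.13 in CONT and from 6.57 through 7.07 to 7.24 in REST, a difference of 0.16 (SE 0.17), and its 4 probes were all higher, by 0.10 to 0.16. With the slide as a block this fell to 0.07, and 1 of its probes turned below 0. SLC25A4 had 2 probes on each side of 0, from -0.08 to 0.16. These exchangers are close relatives, and whether each probe separates them was not tested.

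The remaining carriers of the group exchange ATP-Mg for phosphate, or, in the case of SLC25A31, ADP for ATP, the latter being known from germ cells. SLC25A31 was above background in 1 CONT cow only, and no fold is given for it. SLC25A24 differed by -0.08 (SE 0.33) on its brightest probe and by 0.25 to 0.33 on the other 3. SLC25A25 differed by -0.21 (SE 0.27), and by -0.31 to 0.01 without single cows. Its other probe gave 0.25 but was well above background on 1 array only. SLC25A41, well above background on 9 of 12 arrays, differed by 0.25 (SE 0.30). This was the most positive value of the group among brightest probes, and was 0.06 to 0.39 without single cows.

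Of the di- and tricarboxylate carriers, 2 were matched. SLC25A11, which exchanges 2-oxoglutarate for malate, ran from 2.65 through 2.89 to 3.20 in CONT and from 2.79 through 2.92 to 3.24 in REST, a difference of 0.07 (SE 0.15). SLC25A21, the oxoadipate carrier, differed by 0.06, but with an SE of 0.81, because the cows of both groups ranged widely. It was -0.49 with the slide as a block, -1.50, 1.42 and -1.17 by slide, and -0.35 to 0.54 without single cows, so it has no settled direction. Its other probe gave 0.70 but was well above background in 2 REST cows only.

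The amino acid carriers and their close kin comprised 10 members, 2 of them higher and 8 lower, with none at an unadjusted p under 0.05 (median -0.05). With the slide as a block 6 were higher and 4 lower, and the median was 0.10. SLC25A44, which carries branched-chain amino acids, ran from 0.83 through 0.99 to 1.18 in CONT and from 0.57 through 0.81 to 0.98 in REST. Every REST cow lay below the CONT mean, and the difference was -0.20 (SE 0.13), lower on each slide by 0.14 to 0.21. Its exact permutation p was 0.0368 (two-sided, not adjusted) and its limma p 0.146. With SLC25A34 it made 2 of 36 members with an exact permutation p under 0.05, beside 3.45% of all named genes, but SLC25A34 again entered through its signal in REST, and its other probe had an exact permutation p of 0.42. The other 2 probes of SLC25A44 differed by -0.10 and 0.11.

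SLC25A47, a carrier best known from liver, had the largest positive difference after SLC25A34 among members above background. It ran from -1.65 through -0.70 to -0.35 in CONT and from -0.93 through -0.50 to 0.86 in REST. REST 2 at 0.86, REST 5 at 0.15 and REST 4 at -0.25 were above all CONT cows, while the other 3 REST cows were between -0.93 and -0.76. The difference was 0.51 (SE 0.33, unadjusted limma p 0.146), it fell to 0.28 without REST 2, and it was 1.24 on slide 2 but -0.35 on slide 1.

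SLC25A48, a choline carrier of the same branch, had the most negative difference of the group at -0.30, with an SE of 0.71. It ran from -4.47 to -0.96 in CONT and from -4.72 to -1.16 in REST, and its sign turned with the slide as a block (0.16), without CONT 5 (0.08) and without REST 5 (0.01). The groups overlapped over nearly the whole range. SLC25A12, the aspartate/glutamate exchanger of the malate shuttle, differed by 0.11 (SE 0.17), and the glutamate carrier SLC25A22 by -0.02 (SE 0.21). The glycine carrier SLC25A38 differed by -0.13 (SE 0.12), the basic amino acid carrier SLC25A29 by -0.02 (SE 0.19), the ornithine carrier SLC25A15 by -0.01 (SE 0.26), and SLC25A45 by -0.08 (SE 0.32). With the slide as a block SLC25A15 was at -0.24 and SLC25A45 at 0.23, and the other probe of SLC25A15 gave 0.23 without the block.

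The carriers of cofactors, nucleotides, iron and glutathione comprised 10 members, with 3 higher, 7 lower and none at an unadjusted p under 0.05 (median -0.06), and with 5 higher and 5 lower when the slide was fitted as a block (median -0.02). SLC25A39, a glutathione importer, ran from 3.06 through 3.53 to 3.87 in CONT and from 3.00 through 3.14 to 3.53 in REST. Every REST cow lay below the CONT mean, and 3 CONT cows were above all REST cows. The difference was -0.33 (SE 0.17, interval -0.71 to 0.04, unadjusted limma p 0.0758, exact permutation p 0.0671). By slide it was -0.58, -0.37 and 0.01, and its other 4 probes ran from -0.17 to 0.07.

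SLC25A40, its paralog, had a difference of the opposite sign. It ran from -4.56 through -3.72 to -2.70 in CONT and from -3.90 through -3.25 to -2.98 in REST, so that all REST cows lay inside the CONT range. The difference was 0.32 (SE 0.34) on the brightest probe and 0.36 (SE 0.23) on the other, and neither had an unadjusted p under 0.05 in limma. The brightest probe gave 0.04 with normexp background correction, 0.14 without CONT 3, 0.15 without CONT 4, 0.49 without CONT 5 and 0.51 without CONT 6.

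The iron carriers SLC25A37 and SLC25A28 (mitoferrins) differed by -0.05 (SE 0.17) and -0.12 (SE 0.19). SLC25A16, linked to coenzyme A, ran from 0.76 through 0.89 to 1.27 in CONT and from 0.78 through 1.14 to 1.39 in REST, a difference of 0.20 (SE 0.15) that was above 0 on each slide. The coenzyme A carrier SLC25A42 differed by 0.10 (SE 0.45), by 0.59 with the slide as a block, and by -0.15 to 0.36 without single cows. The S-adenosylmethionine carrier SLC25A26 differed by -0.04 (SE 0.15) on its brightest probe and by 0.47 and 0.06 on the others. The NAD carrier SLC25A51 differed by -0.08 (SE 0.14) on its brightest probe and by 0.18 and 0.22 on the others, so neither carrier has a settled direction. The peroxisomal carrier SLC25A17 differed by -0.13 (SE 0.14). All of these intervals included 0.

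The uncoupling-protein-like carriers were dim. SLC25A14, SLC25A27 and SLC25A30 were well above background on 5, 4 and 11 of 12 arrays and differed by -0.26 (SE 0.49), -0.15 (SE 0.26) and 0.27 (SE 0.33). SLC25A14 turned to 0.12 with the slide as a block. The probes of SLC25A30 gave 0.27 and 0.26, and without single cows 0.05 to 0.49 and 0.08 to 0.43. Beside SLC25A34, the carriers of unsettled substrate included SLC25A35, which had the most negative difference of the family. It ran from -4.51 through -3.33 to -2.47 in CONT and from -4.78 through -3.77 to -2.92 in REST, a difference of -0.36 (SE 0.39) that fell to -0.13 with the slide as a block, and the groups overlapped. It was -0.16 without CONT 4 or REST 6, -0.23 without CONT 2, and -0.57 without CONT 3.

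**Figure D3:**
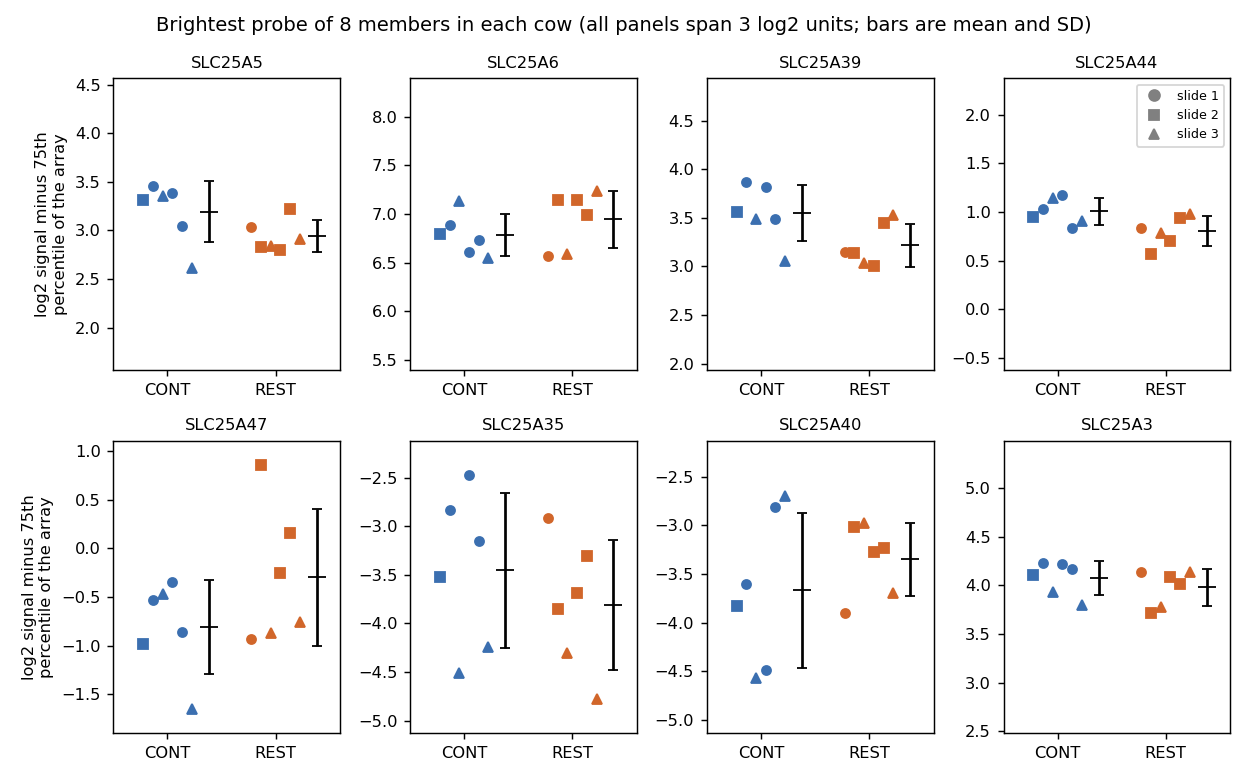
Log2 signal (y axis, relative to the 75th percentile of the array) of the brightest probe of 8 members in each cow, with CONT in blue, REST in orange, slides as symbols, and bars for mean and SD (n = 6). Every REST cow lies below the CONT mean for SLC25A39 and SLC25A44, and the groups overlap in every panel.

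Probes of one gene were compared where there were several. Of the 22 members with 2 or more probes, 9 had all probes on the same side of 0 and 13 had probes on both sides. The 3 probes of SLC25A5 and the 4 of SLC25A6 were on 1 side each. For SLC25A34 the distance between probes was 2.41, for SLC25A21 0.64 and for SLC25A26 0.52, and the others lay within 0.46 of each other. The remaining 14 members had a single probe.

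Genes that work with the family were described in the same way. None of its 5 relatives without an SLC25A symbol had an unadjusted p under 0.05 in limma. UCP2, an uncoupling protein relative, was at a mean of -3.23 (SD 1.00) in the CONT cows and -2.33 (SD 1.18) in the REST cows. Of 10 other mitochondrial transporters (pyruvate carrier subunits, sideroflexins and outer membrane porins) 2 were higher and 8 lower, with a median of -0.08 and none under 0.05. Of 16 genes of the import route for carriers 4 were higher and 12 lower, with a median of -0.09 and none under 0.05 in limma. TOMM6, an outer membrane subunit, had an exact permutation p of 0.0238 (two-sided, not adjusted), with 5 of 6 REST cows below all CONT cows and a difference of -0.19 (SE 0.13). It was the only 1 of the 16 with an exact permutation p under 0.05, beside 3.45% of all named genes. Its unadjusted limma p was 0.151. The differences of largest size there were -0.29 for TIMM8A and -0.27 for TIMM10B, small chaperones of the intermembrane space. The 6 genes followed for mitochondrial content, among them citrate synthase (CS) and ATP synthase subunits, had a median of -0.03 and none under 0.05.

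SLC25A20, which was left out by the rule, ran from 1.24 to 1.93 in CONT and from 1.81 to 2.77 in REST, a difference of 0.74 (SE 0.19, unadjusted limma p 0.0023, adjusted p 1.00). Its 5 highest REST cows were above all CONT cows. No member other than SLC25A34 had a difference of this size on its brightest probe.

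Some members varied widely between the cows of each diet. SLC25A21 ran from -2.85 through -0.49 to 0.81 in CONT and from -3.14 through -0.46 to 0.96 in REST, a span of 4.09 over the 12 cows. Its SD over the cows (1.49) was larger than that of 98.6% of all named genes, and that of SLC25A48 (1.30) larger than that of 97.2%, whereas the median SD of the members (0.41) was near that of all named genes (0.44). The 4 cows with the lowest SLC25A21 were REST 3 (-3.14), CONT 6 (-2.85), REST 1 (-2.19) and CONT 5 (-2.09), 2 from each diet. The same 4 cows had the 4 highest signals of SLC25A48, at -1.16, -1.80, -1.75 and -0.96, against -4.72 to -2.64 in the other 8.

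These cows also had the 4 lowest signals of LALBA, α-lactalbumin, the milk protein that forms lactose synthase. LALBA was at 6.94 in CONT 6, 7.34 in REST 3, 8.12 in REST 1 and 9.02 in CONT 5, and between 9.15 and 10.32 in the other 8. LALBA was chosen for this comparison after the values had been seen. Each of the 36 members was compared with it over the 12 cows, and since the comparison came from the same values, correlations are given as a description without p-values.

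Over the cows, SLC25A21 was higher where LALBA was higher (Pearson r = 0.92, Spearman rho = 0.97). SLC25A4, the ADP/ATP exchanger of muscle and other differentiated tissue, followed the same order (r = 0.90, rho = 0.90). SLC25A24 and SLC25A48 ran the other way, with r = -0.80 (rho = -0.83) and r = -0.80 (rho = -0.87).

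The relations kept their direction without the extreme cows. Without CONT 6 and REST 3, which lay farthest from the median of LALBA, r was 0.88 for SLC25A21, 0.83 for SLC25A4, -0.68 for SLC25A24 and -0.78 for SLC25A48. Within CONT it was 0.85, 0.82, -0.70 and -0.59, and within REST 0.97, 0.98, -0.89 and -0.97 (n = 6 each). The 4 probes of SLC25A4 gave r of 0.77 to 0.90 and those of SLC25A24 gave -0.80 to -0.53. The other probe of SLC25A21 gave 0.81 and that of SLC25A48 gave -0.605, but they were well above background on only 2 and 4 arrays. With the means of the slides removed, r was 0.88, 0.87, -0.69 and -0.79. A slide holds 4 cows, too few for a value within it, and none of the 4 cows with low LALBA was on slide 2.

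**Figure D4:**
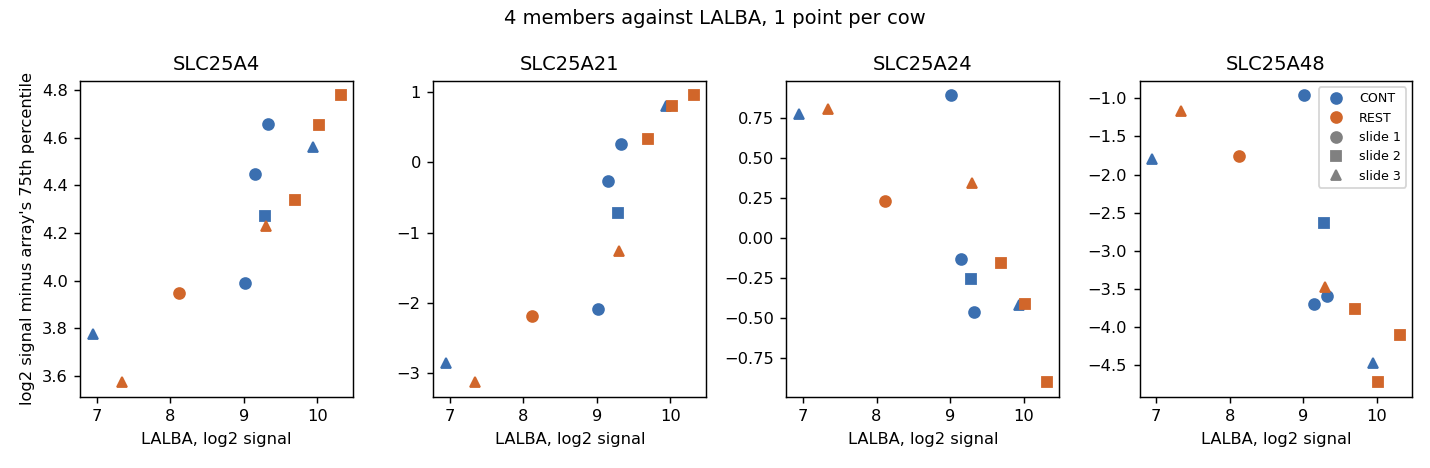
Log2 signal of SLC25A4, SLC25A21, SLC25A24 and SLC25A48 (y axes) against that of LALBA (x axis), both relative to the 75th percentile of the array, with 1 point per cow, CONT in blue, REST in orange and slides as symbols. SLC25A4 and SLC25A21 are higher where LALBA is higher (r of 0.90 and 0.92) and SLC25A24 and SLC25A48 lower (r of -0.80 for both), with cows of both diets along each line.

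Many genes of the gland varied in this way. An absolute r above 0.8 was found for 4 of the 36 members (11.1%), SLC25A4, SLC25A21, SLC25A24 and SLC25A47, beside 10.8% of the 12550 named genes without missing values (the members included and LALBA not), while SLC25A48 fell just short. The members' share was thus near that of all genes, and the relation is not particular to the family. For SLC25A34 r was -0.88 within CONT and 0.01 within REST (n = 6 each), -0.10 over cows of both diets, whose means differ, and 0.69 for its other probe. CONT 6 had the lowest LALBA (6.94) and the highest SLC25A34 signal in CONT (-1.90, the others at -3.74 to -3.06). The value within CONT thus leans on 1 cow. Without CONT 6 and REST 3, r over cows of both diets was 0.295.

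Other genes and array properties moved with the same cows. The pyruvate carrier subunits MPC1 and MPC2, which feed pyruvate to mitochondria beside the SLC25 family, had r of 0.93 and 0.83 with LALBA. The caseins CSN1S1 and CSN3 had r of 0.85 and 0.79, and the keratins KRT8 and KRT18, markers of luminal epithelium, had r of -0.63 and -0.80. The 75th percentile intensity of the array, by which all signals were scaled, was lower where LALBA was higher (r = -0.72, and -0.90 without CONT 6 and REST 3). Its part in these relations, and that of the cell mixture of each biopsy, was not tested.

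**Figure D5:**
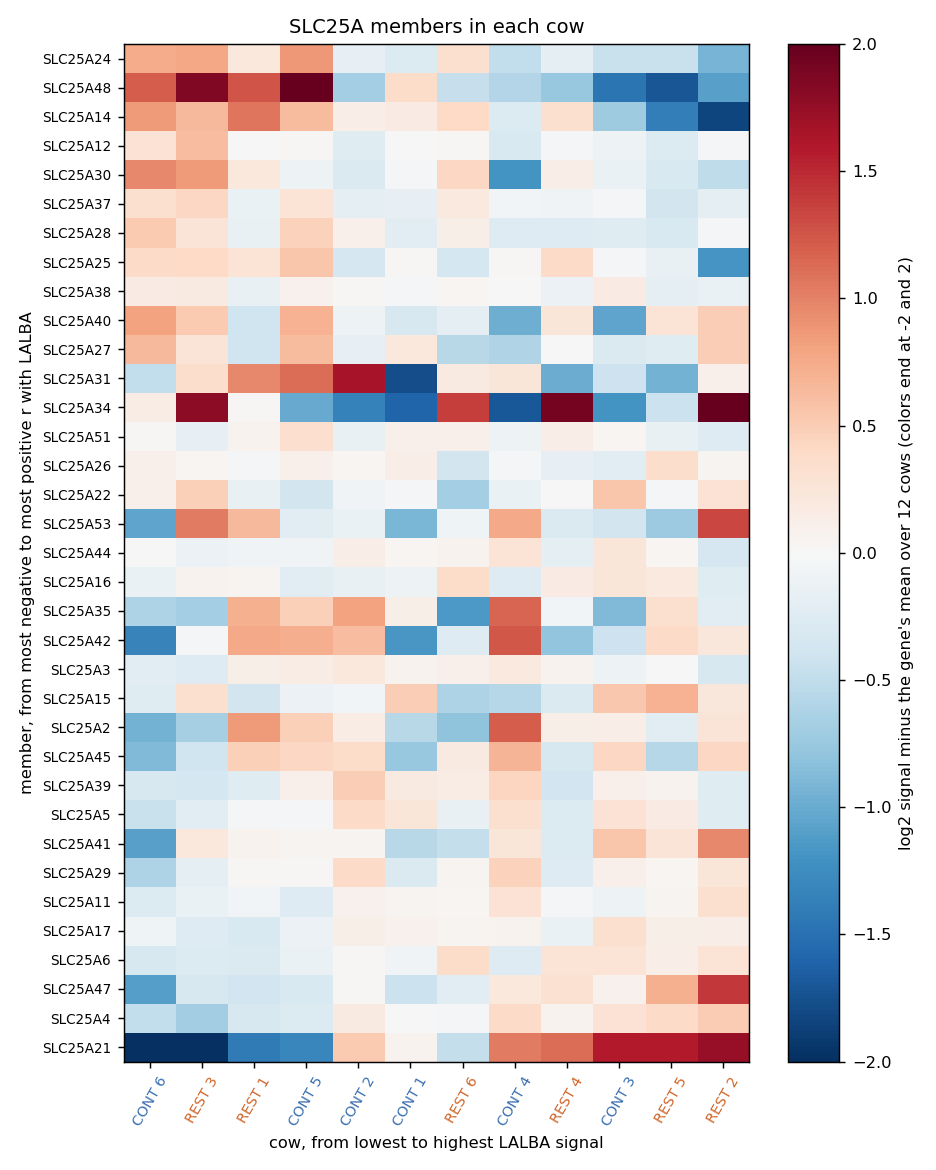
Log2 signal of 35 members (rows, ordered by their r with LALBA) in the 12 cows (columns, ordered from the lowest to the highest LALBA, CONT names in blue and REST names in orange), as the difference from the gene's mean over all cows, red for higher and blue for lower. SLC25A21 at the bottom turns from low to high and SLC25A48 near the top from high to low along the cows, while SLC25A34 is high in REST 2, REST 3, REST 4 and REST 6.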

How the data were processed

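Mammary RNA of 12 cows was hybridized to one-color Agilent bovine arrays. The deposited values are Cy3 spot intensities, which the authors obtained with Feature Extraction (version 11.0.1.1, per the file headers) after its background correction, without scaling between arrays. The deposited matrix holds the same intensities (largest difference 0). Control spots were removed (43803 of 45220 spots kept), outlier spots were set to missing, log2 values were taken, the 75th percentile of each array was subtracted, and spots of a probe were averaged. None of the 73 family probes had a missing value. The values of 1 member are not reported here, although it stays in all counts and medians. No filter on dim probes was applied. Positions are not given, because the array grid and the RefSeq table used for names belong to different assemblies.

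REST and CONT were compared over all 43653 probes with limma 3.58.1 (R 4.3.3, lmFit and eBayes, two-sided, no covariate). Westfall-Young step-down p-values used 100 of the 462 distinct relabelings of the cows, so that 0.01 is the smallest possible. Benjamini-Hochberg values were computed beside them, and the exact permutation test of a probe went through every split of the cows. A summed marker signal is the log2 of the sum of the scaled intensities. The procedure was tested on simulated data. Figures were drawn with matplotlib 3.10.9.

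Named with full values were SLC25A34, members or probes with an unadjusted p under 0.05, the 3 members with the largest difference in each direction among those above background somewhere, and members whose groups do not overlap. The highest and lowest difference of each role group is named too, with or without group values. The choice of other members for group values, such as SLC25A6, SLC25A16 and SLC25A44, was made after their values were seen. The members, the gene lists and the tests were chosen with earlier results of these data known. Alternatives were quantile normalization, normexp background correction (offset 50), outlier spots kept, a filter on dim probes, an intensity trend in eBayes, a block for the slide, other choices among the probes of a gene, another draw of relabelings, and leaving out each cow in turn.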

Additional observations from a re-analysis of the deposited data

Results flagged for a closer look

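Among 72 groups (36 members in CONT and in REST), 3 held a cow whose gap to the next, divided by the range of the group, exceeded Dixon's 95% critical value for 6 cows. Chance gives about 1 in 20, or 3.6 of 72. For SLC25A12, REST 3 stood at -0.64, above the other REST cows at -1.52 to -1.23. For SLC25A16, CONT 3 stood at 1.27, above the other CONT cows at 0.76 to 0.92. For SLC25A34, CONT 6 stood at -1.90, above the other CONT cows at -3.74 to -3.06, and without CONT 6 the log2 difference of SLC25A34 was 2.48. CONT 6 and REST 3 were also the cows with the lowest LALBA signals, and CONT 6 had the lowest signal of 10 members (27.8%), beside 25.6% of all named genes without missing values.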

How the results depend on the processing

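No member and no probe passed the adjusted threshold under any alternative that was run, another draw of the relabelings and Benjamini-Hochberg included. The number of members with an unadjusted p under 0.05 was 1, and was 3 with quantile normalization (SLC25A39 and SLC25A53 gained), 2 with the slide as a block (SLC25A53 gained, which is above background on no array), 2 with an intensity trend (SLC25A39 gained), 0 of 26 when only probes above background on all arrays could stand for a gene, and 1 to 3 without single cows (3 without CONT 6, with SLC25A5 and SLC25A39, and 2 without CONT 4 or REST 5, with SLC25A53, or REST 6, with SLC25A39). The number of such probes was 1, and was 3, 2 and 2 with the first 3 of these settings and 1 to 5 without single cows (5 without CONT 6). The number of members higher in REST (12) was 20 with the slide as a block, 18 with a gene taken as the average of its probes, 6 of 26 with probes above background on all arrays, and 12 to 16 without single cows. The median difference of the members (-0.06) turned positive with the slide as a block (0.0494) and with a gene taken as the average of its probes (0.0052), and was -0.08 to -0.02 without single cows. SLC25A34 turned to -0.19 where only probes above background on all arrays could stand for it, was 1.02 with the mean over its probes and 1.41 with normexp, and kept its direction and an unadjusted p under 0.05 under the other alternatives. SLC25A40 (0.32) was 0.04 with normexp and 0.14 to 0.51 without single cows, and SLC25A35 (-0.36) was -0.13 with the slide as a block and -0.57 to -0.16 without single cows. SLC25A48 turned to 0.16 with the slide as a block, 0.0755 without CONT 5 and 0.01 without REST 5. SLC25A39 had an unadjusted p under 0.05 with quantile normalization (-0.33, p 0.0302), with an intensity trend (p 0.0487), without CONT 6 (-0.43, p 0.0187) and without REST 6 (-0.40, p 0.0465). The causes were not tested. The correlations with LALBA kept their sign under quantile normalization, normexp, removal of slide means and without single cows (alternatives chosen after seeing the data), at 0.82 to 0.96 for SLC25A21, 0.79 to 0.93 for SLC25A4, -0.91 to -0.69 for SLC25A24 and -0.92 to -0.70 for SLC25A48. No paired analysis was possible because the cows of the groups share no number or pairing in the labels. The 12 arrays limit the precision, and for the 11 members not above background on every array the signal limits it too.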
